A study of Bos taurus with 18 samples.

Results

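ARID4B is a subunit of the SIN3-HDAC corepressor complex, which removes acetyl groups from histones and lowers transcription, and it binds the retinoblastoma protein as its paralogue ARID4A does. In the mouse, ARID4B acts with the androgen receptor in Sertoli cells, the cells that nurse developing germ cells, and its loss disturbs spermatogenesis. DNA methylation is the addition of a methyl group to cytosine, in mammals mostly at CpG dinucleotides. Mature sperm DNA is methylated over most of its length, and CpG-dense promoters are the usual exception.

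The gene lies on chromosome 28, at chr28:7971323-8110955 of the cattle genome UMD 3.1, and is 139633 bp long in that annotation. All CpG positions inside the gene and in 2000 bp on each side of it were taken, which gave 2167 positions, 2066 in the gene and 101 in the flanks, of 40640718 positions listed in at least 1 bull over the whole genome. Exons, introns and the strand of the gene in this build were not used here, so positions are described by their distance from the lower end of the gene, the end with the smaller coordinate. In the gene table of a later assembly, ARS-UCD2.0, the protein-coding neighbours of ARID4B are RBM34 on one side and GGPS1, which encodes an enzyme of isoprenoid synthesis, on the other.

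Sperm of 18 adult Holstein bulls, 1 sample per bull, was measured by whole-genome bisulfite sequencing, in which unmethylated cytosines are read as thymine and methylated ones stay cytosine. The labels place bulls as high or low for gestation length (GL, 4 and 4 bulls), sire calving ease (SCE, 3 and 3), cow conception rate (CCR, 3 and 3), body depth (BDE, 3 and 3) and sire conception rate (SCR, 3 and 3). The high-GL bulls were H03, H09, L03 and L05 and the low-GL bulls H02, H05, L01 and L07. For SCE, H03, H07 and L02 were high and H01, H06 and L09 low, and for BDE, H02, L03 and L08 were high and H05, H09 and L02 low. For CCR, H08, H09 and L06 were high and H06, L08 and L09 low, and for SCR, H01, H02 and H03 were high and L01, L02 and L03 low. The first letter of a bull's name does not give its group for GL, SCE, BDE or CCR. Many bulls stand in more than 1 comparison, so the comparisons are not independent, and H04 and L04 have no group. A group is a set of breeding bulls with no treatment. The study ranked them by genetic merit for GL, SCE, BDE and CCR, while for SCR the labels give only high or low. The sperm label was not checked against imprinted regions, since no annotation of this build was used.

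The bulls listed between 2858992 and 22048556 positions over the genome and between 180 (L09) and 1149 (H05) in ARID4B, with a median of 561. A position is listed only where at least 10 reads cover it. No ARID4B position was listed in all 18 bulls, the most widely listed was found in 17, the median position in 4, and 94 positions in at least 12. Read numbers are given for 6 bulls only, with a median of 11 and at most 25 reads per ARID4B position. A single value in those bulls therefore carries a wide counting error, and no depth is known for the remaining 12 bulls.

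ARID4B was highly methylated in the sperm of every bull, apart from one short stretch near its lower end and one longer stretch over its upper end. Of the 2167 positions, 1863 had a mean over bulls of at least 80%, 183 of at most 20%, and 121 lay between. Of the 183 low positions, 166 fell into 2 low-methylation domains, defined as runs of at least 10 consecutive listed positions with a mean over bulls under 20%. The 2001 positions outside the domains had a mean of 92.4% and the 166 inside a mean of 3.29%.

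**Figure D1:**
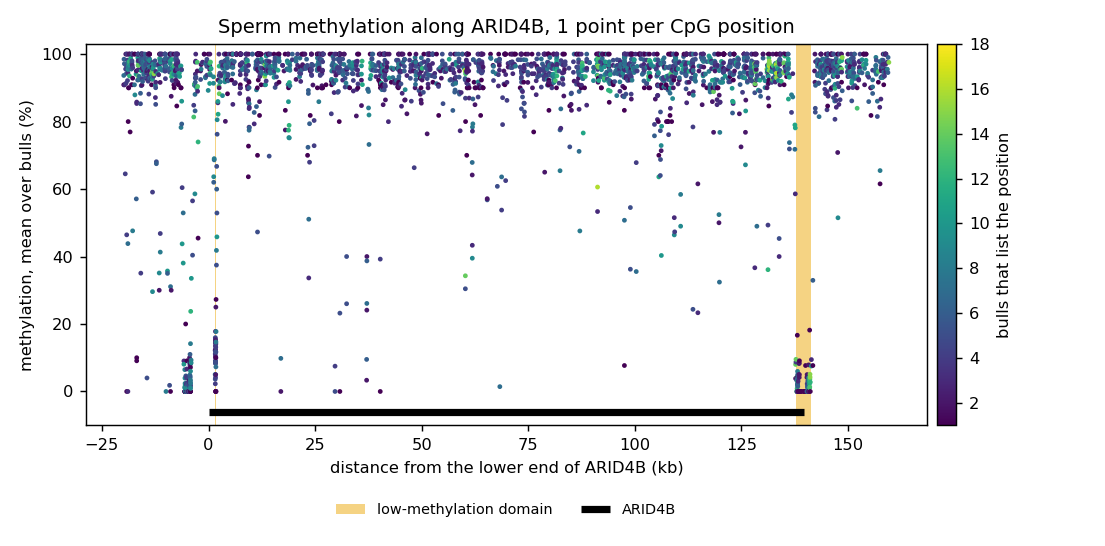
Mean methylation over bulls (y axis, percent) of each CpG position against its distance from the lower end of ARID4B (x axis, kb), with 1 point per position coloured by the number of bulls that list it. The gene (black bar) is near 92.4% between the 2 shaded low-methylation domains, and single low positions are scattered through it.

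The upper domain, chr28:8109054-8112761, was 3708 bp long, held 136 listed positions and ran from inside the gene to 1806 bp beyond its upper end. All 18 bulls listed positions of it, between 6 (L09) and 66 (L06), and their means ran from 0% (L09) to 6.33% (H01), with a median of 2.40%. The last listed position before it had a mean of 78.1%. The next listed positions beyond it, outside the flank, had means of 32.9% (8113106), 7.69% (8113107, listed by H02) and 95% (8113500). The lower domain, chr28:7972885-7973050, began 1562 bp inside the gene and was 166 bp long, with 30 listed positions. Only 11 bulls listed any of them. Those that listed 10 or more were 6 bulls, with means of 10.1% (H04), 7.54% (H05), 21.1% (L01), 17.9% (L03), 6.99% (L05) and 3.76% (L06). The mean of the position means was 9.85% in the lower and 1.84% in the upper domain. The last listed position before the lower domain had a mean of 69.0%. On its other side the level went up and down. The next position had 25%, a run of 7 positions from 7973056 to 7973096 a mean of 8.77%, and later positions 41.8% (7973184) and 59.97% (7973244). At the position 7973298, 10 bulls had values from 10% in L05 to 71.4% in L07, with a median of 45%.

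**Figure D2:**
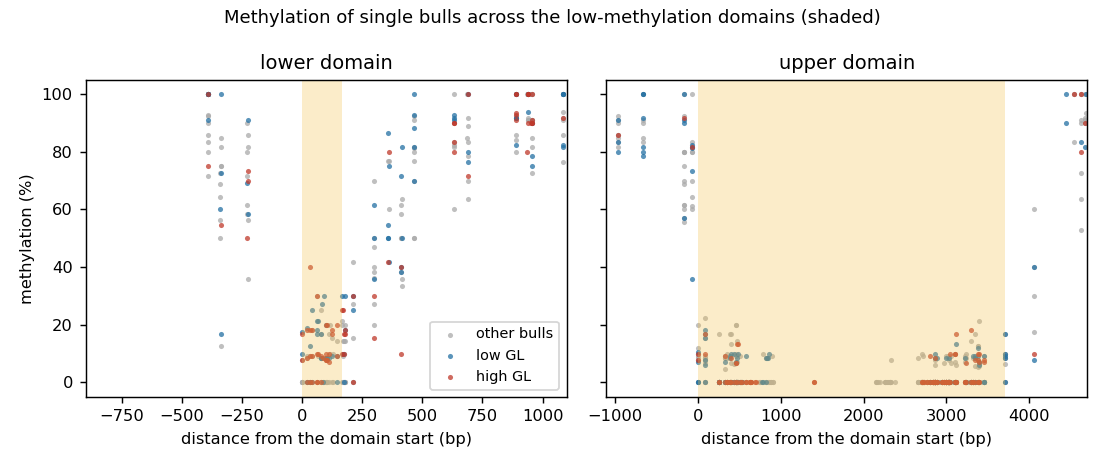
Methylation of single bulls (y axis, percent) against the distance from the start of the lower (left) and upper (right) domain (x axis, bp), with high-GL bulls in red, low-GL bulls in blue and all others in grey, and the domains shaded. Values in the upper domain are near 0%, and values beyond the lower domain, on its side with larger coordinates, are mixed before they reach the level of the gene.

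Averaged over the positions each bull listed, ARID4B methylation ranged from 80.96% (L05) to 90.1% (H03), with a mean of 86.2% ± 2.25 (SD, n = 18). The mean over all positions of the genome was 81.7% ± 2.02 in the same bulls. ARID4B was higher than the genome in 16 of 18 bulls, by 4.51 points ± 2.94 (SD) on average, and the exact sign-flip permutation test over bulls gave p = 4.58e-05 (two-sided). The exceptions were H08, with 82.5% against 84.7%, and L05, with 80.96% against 81.7%. These bulls had the largest shares of their ARID4B positions inside the domains, 11.1% in H08 and 12.2% in L05, against 3.33% in L09. Outside the domains, which were chosen for their low values, the bull means ran from 90.4% (L07) to 93.5% (H03), with an SD of 0.839 over bulls. The 100 kb on each side of the gene, without the gene and its flanks, had a mean of 82.3% ± 2.50 (SD, n = 18), below ARID4B in 16 bulls. Among the 25 genes that the study fine-mapped for gestation length, each with 2000 bp on each side, ARID4B had the 11th highest median bull mean, 86.6%.

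**Figure D3:**
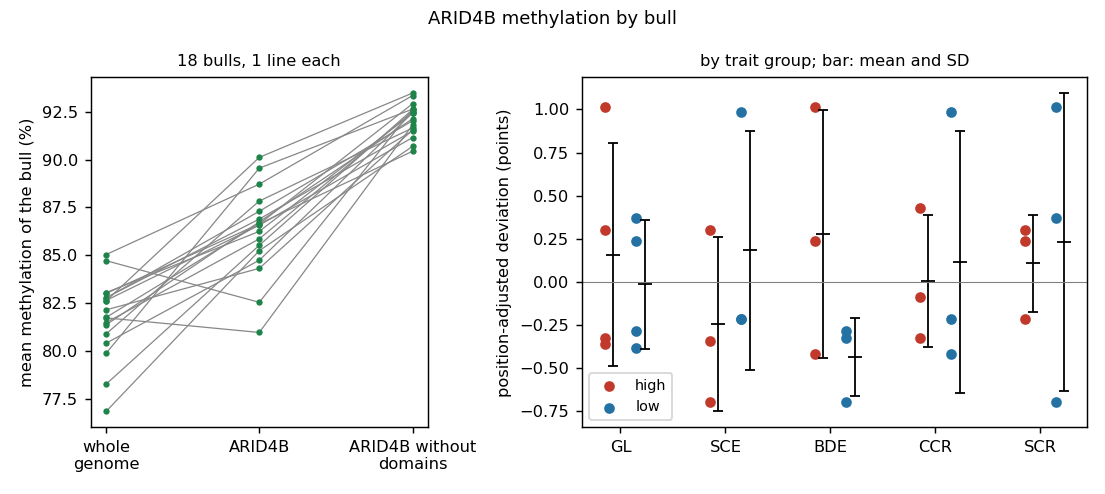
Left, mean methylation (y axis, percent) of each of the 18 bulls over the whole genome, over ARID4B and over ARID4B without its low-methylation domains, joined by a line per bull (low positions were left out of ARID4B only, not of the genome). Right, position-adjusted deviation of ARID4B methylation (y axis, percentage points) of each bull by trait and group, with the mean and SD as black bars; high and low groups overlap for all 5 traits.

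Whether high and low bulls differed over the whole gene was compared after allowing for the different positions they listed. Each value was taken as its deviation from the mean of that position over all bulls that list it, and the deviations were averaged per bull. That mean includes the bull's own value, which draws deviations toward 0. The 328 positions listed in 1 bull only give a deviation of exactly 0. The bulls then lay between -0.70 points (L04) and 1.01 points (L03). For GL, the high bulls had -0.36 (L05), -0.32 (H09), 0.30 (H03) and 1.01 (L03) points and the low bulls -0.38 (L07), -0.29 (H05), 0.24 (H02) and 0.37 (L01). The groups overlapped, with means of 0.16 ± 0.65 and -0.02 ± 0.38 (SD, n = 4 each), and the difference of 0.17 points had p = 0.686 in an exact permutation test (two-sided). Without L03 the difference was -0.11 points.

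The other traits gave a difference of -0.43 points for SCE (exact permutation p = 0.5), 0.71 for BDE (p = 0.3), -0.11 for CCR (p = 0.9) and -0.12 for SCR (p = 0.8), and high and low bulls overlapped in each. With 3 bulls against 3 the exact test cannot go below p = 0.1. Adjusted over the 5 traits by the Benjamini-Hochberg method, all 5 p-values were 0.9. When the listed positions were not allowed for, the high-CCR bulls had plain means of 82.5% (H08), 85.5% (H09) and 84.7% (L06), all below the low-CCR bulls with 88.7% (H06), 87.8% (L08) and 89.6% (L09), a difference of -4.44 points with an exact permutation p = 0.1. Between 7.85% and 11.1% of the positions of these high-CCR bulls lay inside the domains, against 3.33% to 5.13% in the low-CCR bulls. Inside the domains alone, the GL groups differed by 1.09 points, also an exact permutation test over 4 and 4 bulls (p = 0.629), and by -0.29 points without L03. With domains of positions under 50% the difference was 0.26 points (exact permutation p = 1), and with runs of at least 5 positions 0.69 points.

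Differences in parts of the gene and its flanks were then tested in tiles of 2000 bp, the unit the study used. Groups were compared by logistic regression of methylated and unmethylated reads, with listed read numbers for SCR and an assumed 10 reads per position for the other traits, whose q values therefore rest on that number, over all tiles of the genome in which every bull of the comparison lists a position. A tile was called at a q value under 0.01 and a difference over 5 percentage points. Tiles that touch the gene or its flanks were counted as ARID4B tiles and tested whole, so those at the ends also hold positions outside. For GL, 2 of 46 ARID4B tiles were called, both lower in high-GL bulls, where 8.75% of all tested tiles of the genome were called. For SCE 4 of 32 were called (6.18% over the genome), for BDE 2 of 44 (7.57%), for CCR 2 of 33 (11.1%) and for SCR 4 of 42 (8.68%). The called CCR tile that starts at 7968001 lies below the gene and mostly outside its flank. The called SCR tile that starts at 8112001 lies above the gene and partly outside its flank. Except for SCE, the shares of ARID4B tiles called were near or below the genome's. The median tile difference in ARID4B was 0.53 points for GL, -0.88 for SCE, 1.15 for BDE, -1.12 for CCR and 0.06 for SCR.

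The logistic test treats reads of all bulls of a group as a single pool, without the spread between bulls. An F test with overdispersion and limma, which estimate that spread, called 0 ARID4B tiles in any trait. Both also called 0 tiles over the whole genome in every trait, so the counts of 0 say nothing of ARID4B in particular. Without any test, 6 ARID4B tiles differed by over 5 points for GL (13% of those tested, genome 19%), 8 for SCE (25%, genome 24.6%), 8 for BDE (18.2%, genome 24.8%), 6 for CCR (18.2%, genome 24.3%) and 10 for SCR (23.8%, genome 24.8%). With an unadjusted p under 0.05 as well, the F test left 0 tiles for GL (genome 3.69% of all tested tiles), 2 for SCE (6.25% of the ARID4B tiles tested, genome 3.41%), 0 for BDE (genome 3.7%), 1 for CCR (3.03%, genome 3.37%) and 2 for SCR (4.76%, genome 2.72%). Limma left 2 for GL (4.35%, genome 3.59%), 2 for SCR (4.76%, genome 3.4%) and 0 for SCE, BDE and CCR (genome 3.3%, 3.84% and 3.61%). A test stratified by position, on matched positions that at least 1 bull of each group listed (Cochran-Mantel-Haenszel), called 1 ARID4B tile for SCE and 0 for the other traits. Like the logistic test, it pools the reads of all bulls of a group, with 10 assumed per position except for SCR. Its p and q values therefore do not measure the spread between bulls. Among tiles over 5 points apart, the unadjusted p was under 0.05 for 4 (GL), 9 (SCE), 4 (BDE), 4 (CCR) and 8 (SCR), or 5.56%, 12.5%, 5.56%, 5.56% and 11.4% of all ARID4B tiles tested, against 11.2%, 11%, 10.7%, 14.9% and 12% over the genome. It tested 72 ARID4B tiles for each trait except SCR, with 70, and called 1.8% of the genome's tiles for GL, 1.1% for SCE, 1.18% for BDE, 3.27% for CCR and 2.01% for SCR.

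Both GL tiles lie on the boundary of a low-methylation domain. The tile over the lower domain, chr28:7972001-7974000, had means in the high-GL bulls of 30.4% (L05), 37.3% (L03), 79.0% (H03) and 79.6% (H09), and in the low-GL bulls of 40.0% (H05), 51.9% (L01), 66.6% (H02) and 78.4% (L07). The groups overlapped, with 56.6% ± 26.4 and 59.2% ± 16.8 (SD, n = 4 each). Pooled over reads, the difference was -11.7 points (q = 5.83e-05). L05 listed 37 positions there, 21 of them in the domain, and L03 listed 23 with 12 in it, while H09 listed 10 and L07 17 with 0 in it. In all, 45.3% of the values of the high-GL bulls and 30.2% of those of the low-GL bulls came from the domain. When each value was replaced by the mean of its position over all bulls that list it, the groups still differed by -9.13 points. These position means include the compared bulls themselves, so they do not fully separate the listed positions from the level. At the 40 matched positions the difference was -2.08 points (q = 0.581), 20 were higher in the high-GL bulls, 19 lower and 1 equal, and the largest gap was -33.7 points at 7973184. Without L05 the tile differed by -0.10 points and without L07 by -5.70, and it was not called.

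The tile at the start of the upper domain, chr28:8108001-8110000, had means of 0% (H03), 3.22% (L05), 21.9% (H09) and 29.8% (L03) in the high-GL bulls and of 14.7% (H05), 21.8% (L07), 22.6% (L01) and 28.8% (H02) in the low-GL bulls. These groups also overlapped, with 13.7% ± 14.4 and 21.95% ± 5.78 (SD, n = 4 each), and the pooled difference was -11.2 points (q = 1.89e-05). All 23 positions of L05 and all 3 of H03 lay in the domain. Position means in place of the values gave -12.2 points. At the 21 matched positions the high-GL bulls were 1.15 points higher (q = 0.66), with 10 positions higher, 5 lower and 6 equal. Of these, only 8108095, 8108890 and 8108983 lie outside the domain, each listed by 1 high-GL bull. The rest lie in the domain, where values are low in both groups and little difference can show. Without L05 the pooled difference was -1.56 points and the tile was not called.

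**Figure D4:**
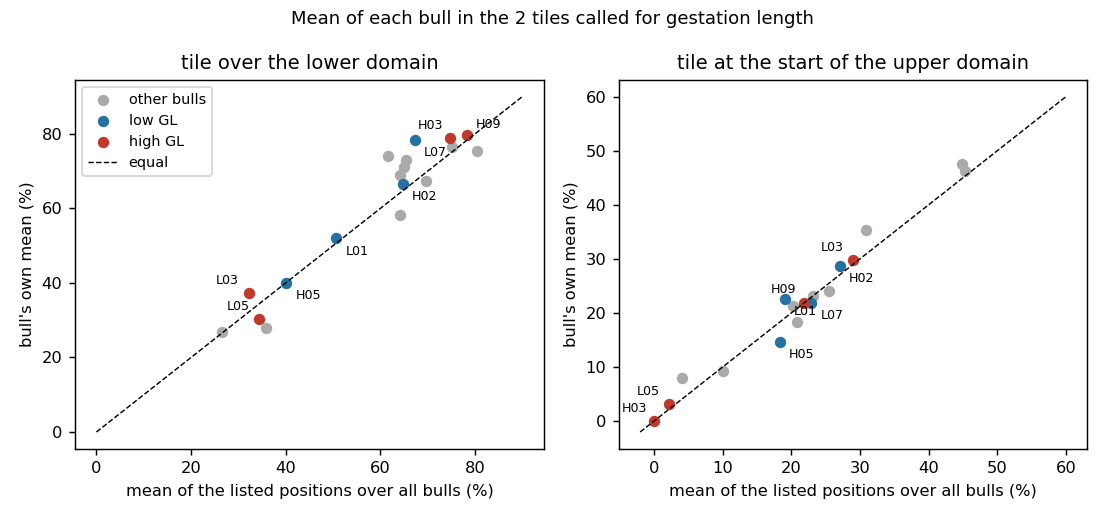
Mean methylation of each bull in the 2 tiles called for GL (y axis, percent) against the mean of the same positions over all bulls that list them (x axis, percent), with high-GL bulls in red, low-GL bulls in blue, others in grey and a dashed line of equality. The bulls lie along the line, L05 at its lower part in both tiles; the x value includes the bull's own value.

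The same boundary tiles were called for other traits. Over the lower domain, the high-SCR bulls had 66.6% (H02), 75.4% (H01) and 79.0% (H03) and the low-SCR bulls 37.3% (L03), 51.9% (L01) and 58.3% (L02). These groups did not overlap. The same held for 50420 of 549229 tested SCR tiles over the genome and 5 of 42 in ARID4B. Among called SCR tiles it held for 15104 of 47656 over the genome and 4 of 4 in ARID4B. The pooled difference was 23.3 points (q = 1.11e-08), and the tile was called with each bull left out (17.2 to 27.5 points). Position means gave 23.96 points, with 9.52% of the values of the high and 34.9% of those of the low bulls in the domain. The difference at 13 matched positions, of which only 7972920 lies in the domain, was 2.78 points (q = 0.626). For CCR this tile differed by -29.6 points (q = 3.21e-14), the largest difference of any ARID4B tile, with 27.8% (L06), 68.9% (H08) and 79.6% (H09) in the high and 72.9% (H06), 73.9% (L09) and 76.6% (L08) in the low bulls. Here the groups overlapped, and position means gave -20.3 points. The 16 matched positions gave -10.2 points (q = 0.0531), but all lie outside the domain, so they do not compare the groups inside it. Without L06 the pooled difference was -1.64 points and not called. For BDE, the tile at the start of the upper domain had 28.8% (H02), 29.8% (L03) and 46.3% (L08) in the high and 14.7% (H05), 21.9% (H09) and 23.1% (L02) in the low bulls, without overlap. The BDE groups also did not overlap in 55761 of 550314 tested tiles over the genome and 4 of 44 in ARID4B. Among called BDE tiles it was 15583 of 41634 and 1 of 2. For this boundary tile the pooled difference of 14.8 points (q = 0.000552) stood beside 11.9 points from position means and 3.28 points at 12 matched positions (q = 0.595). Of these 12, only 8108095, 8108393, 8108890 and 8108983 lie outside the domain. The tile was not called without L08 (9.60 points) or without H05 (11.4 points).

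Inside the gene, away from the domains, 3 of the called tiles held single positions at which bulls span nearly the whole scale. Of 1440 positions listed in at least 3 bulls and over 500 bp from a domain, 33 had a mean under 50%, and only 2 of these were at most 10% in every bull that listed them. One of the 2, 8001010, was 0% in all 5 bulls listing it, and the other, 8039670, was 0% in 6 bulls and 10% in H03. At 20 of the 1440 positions, at least 1 bull had at most 10% and at least 1 other bull at least 90%. Most of them lie in tiles that were not called for any trait. The called tiles that start at 7994001 and 8058001 hold none of them. These 20 were picked for their range, so their spread is a description. The deposited percents do not tell an inherited T from an unmethylated C, and which of these the low values are was not tested.

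Values at those 20 positions were spread differently from bull to bull, but the bulls at the ends supplied the values by which the positions were chosen. The contrast between bulls is therefore partly fixed by that choice. The pairs 8003723 and 8003724, 8071668 and 8071669, and 8080591 and 8080592 are each the 2 strands of a CpG. A bull that lists both strands is counted more than once there. H06 listed 14 of the 20 positions, with at most 10% at 5, at least 90% at 9 and no value between. H02 listed 11, with 8 at most 10%, 3 at least 90% and none between, and L06 had 13 of its 15 values at one end or the other. H05 had 12 of its 14 values at the ends. By contrast, all 10 values of L05, all 7 of H08, all 7 of L01 and all 6 of L07 lay between 10% and 90%. Other bulls had both kinds, such as L04, with 8 of 11 values between, H04 with 4 of 6, H03 with 3 of 6 and L02 with 2 of 6. In all, 39 of the 133 values were at most 10%, 30 at least 90% and 49 between 30% and 70%. Which bulls stood at which end changed from position to position. At 8080591, H02 and L02 had 0% and H05 7.14%, while H06 had 92.9% and L06 93.8%. At 8077561, H02, H05 and L02 had 0% and L06 100%. At 8099971, by contrast, H06 and L06 had 0%, H02 90% and H05 100%. Over the whole region, the 2 strands of a CpG measured in the same bull (1501 pairs) differed by a median of 6.94 points, and by over 20 points in 65 pairs (4.33%).

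**Figure D5:**
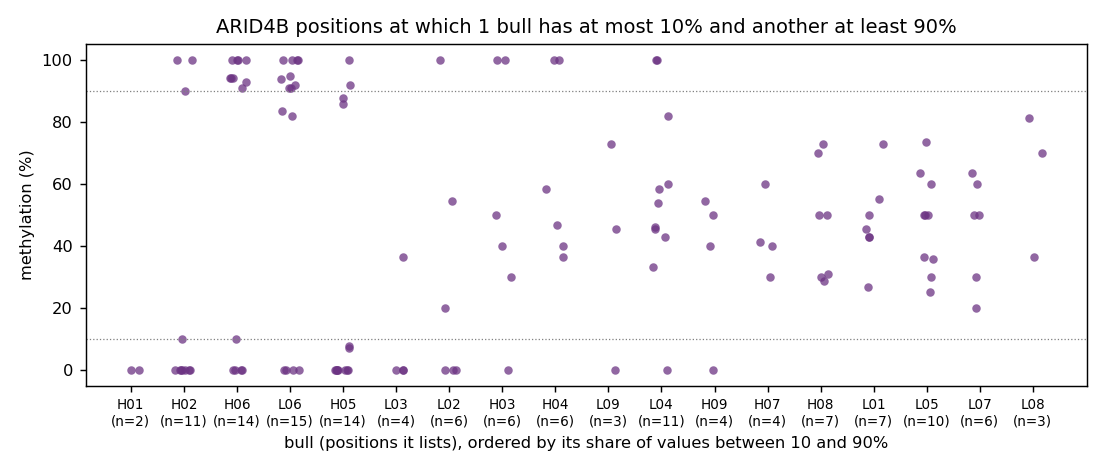
Methylation (y axis, percent) at the 20 ARID4B positions where 1 bull has at most 10% and another at least 90%, by bull (x axis, with the number n of these positions it lists), with dotted lines at 10% and 90%. H02, H06, L06 and H05 lie mostly at the ends of the scale, while L05, L01, H08 and L07 lie between the lines throughout. Bulls at the ends supplied the values by which these positions were chosen. Whether low values are unmethylated C or an inherited T was not tested.

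Among the 94 positions listed in at least 12 bulls, the median range between bulls was 16.7 points. The 5 with the largest ranges were 8102576 (100 points, 12 bulls), 8031582 (94.7 points, 14 bulls), 8062590 (61.9 points, 16 bulls), 8099808 (30.8 points, 13 bulls) and 7990098 (30 points, 12 bulls). At 8031582, H01, H02, H03, H09, L03 and L04 had 0%, L02, L01, L05 and H07 had 20%, 26.7%, 36.4% and 41.2%, and L08, H05, H06 and L06 had 81.2%, 85.7%, 94.1% and 94.7%. The value of H01 rests on 0 of 17 reads, with an exact (Clopper-Pearson) 95% interval of 0% to 19.5%, and that of L01 on 4 of 15 reads, with an interval of 7.79% to 55.1%. At 8102576, H02, H05, L02 and L03 had 0%, 7 bulls lay from 30% (H08) to 72.7% (L09), and H06 had 100%. L01 had 11 of 20 reads methylated there, with an interval of 31.5% to 76.9%, so L01 was apart from both ends of the scale beyond counting error, while read numbers of H06 are not given. Such intervals cover counting error only.

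The tile that holds 8031582, chr28:8030001-8032000, was called for SCE and SCR. Its means were 73.2% (H03), 74.7% (H02) and 76.4% (H01) in the high-SCR bulls and 81.7% (L03), 89.0% (L01) and 89.3% (L02) in the low-SCR bulls, without overlap, and the difference was -14.5 points (q = 3.92e-05). As given above, the SCR groups did not overlap in 50420 of 549229 tested tiles over the genome and 5 of 42 in ARID4B. The 6 matched positions gave -4.53 points (q = 0.218). Without 8031582 the pooled difference was -9.004 points, and with each bull left out the tile was called (-16.3 to -13.4 points). For SCE the tile differed by -9.13 points (q = 0.00494), with 73.2% (H03), 88.0% (H07) and 89.3% (L02) against 76.4% (H01), 90% (L09, a single position) and 97.4% (H06). The 15 matched positions gave -5.27 points (q = 0.232), and without 8031582 the pooled difference was -6.09 points. Without H06 the tile differed by 5.61 points, in the other direction, and without H03 by -4.79 points, and it was not called in either case.

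The tile chr28:8002001-8004000 was called for SCE (8.94 points, q = 0.0045) and BDE (12.1 points, q = 0.000471). For SCE, the high bulls had 94.0% (L02), 94.4% (H03) and 95.9% (H07) and the low bulls 84.3% (H06), 90% (L09) and 97.2% (H01), where L09 listed 1 position and H06 listed 30. At matched positions the difference was 9.60 points over 16 positions for SCE (q = 0.0173) and 9.44 points over 11 for BDE (q = 0.0303). Both fell short of the threshold of 0.01. The median over these positions was smaller, 1.41 points for SCE (8 higher, 4 lower, 4 equal) and 0 for BDE (5 higher, 1 lower, 5 equal). The largest gap was 100 points in both, at 8003724 for SCE and at 8003723 for BDE, with 1 bull against 1. For SCE, 8002146 followed with 61.5 points, also 1 bull against 1. For BDE the high bulls had 90% (L03), 98.1% (H02) and 100% (L08) and the low bulls 79.1% (H05), 90% (H09) and 94.0% (L02). The neighbouring positions 8003723 and 8003724, the 2 strands of a CpG, were 0% in H05, H06 and L06, 100% at the first in H02 and 100% at the second in H03 and L04. Leaving out the position with the larger group difference moved the tile to 6.12 points for SCE and 9.19 points for BDE. Without H06 the SCE difference was -0.88 points, and it was not called. Without H03 (9.001 points), H07 (8.52) or L02 (9.46) it was as large as with all bulls but also not called. Without H05 the BDE difference was 3.81 points, and without H02 it was 9.86 points, and neither was called.

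One tile, chr28:8102001-8104000, was the only ARID4B tile called at matched positions, and is named here because of that value. It was lower in the high-SCE bulls, with 86.7% (L02), 87.3% (H03) and 97.4% (H07) against 95.2% (L09), 98.2% (H06) and 100% (H01, at 2 positions). The groups overlapped. The pooled difference was -7.12 points (q = 0.000603), and over 19 matched positions it was -8.18 points (q = 0.00113), with 13 positions lower, 4 higher and 2 equal. The tile holds 8102576, where H03 and L02 had 40% and 0% and H06 and L09 100% and 72.7%. Without that position the pooled difference was -3.73 points. The logistic call was also lost without H03 (-5.29 points), without L02 (-5.72 points) or without H06 (-5.83 points). Among tiles in which every SCE bull lists a position, the one with the largest difference for SCE, chr28:7994001-7996000, differed by 9.95 points (q = 0.00935). Position means gave 9.29 points, and the 11 matched positions gave 1.95 points (q = 0.753). Without H06 it differed by 6.27 points and was not called. The call was also lost without H03 (9.25 points), L02 (9.47) or L09 (9.22), though the difference stayed about as large.

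Across the 18 bulls, the position-adjusted deviation of ARID4B was compared with that of the other 24 fine-mapped genes. By Pearson's r, the 3 most alike were NDEL1 (Pearson r = 0.618, Spearman rho = 0.498), DNAH2 (0.548 and 0.587) and MYH10 (0.545 and 0.556), all on chromosome 19. MROH1 on chromosome 14 (Pearson r = 0.542) and PCDHA13 on chromosome 7 (0.541) came close behind MYH10. NDEL1 and MYH10 overlap at their ends and share the positions there. NDEL1 acts in dynein-driven transport, DNAH2 is an axonemal dynein of the sperm tail and MYH10 is a non-muscle myosin. Without the 2 bulls farthest from the ARID4B median, r was 0.428, 0.471 and 0.386, and the order changed. HCFC2 then came first with 0.662, PCDHA13 had 0.480 and MROH1 0.475, and HCFC2 also had the highest Spearman rho over all 18 bulls, 0.631. HCFC2, PCDHA13 and MROH1 were named after their values were seen, and the first places of the chromosome 19 genes rest on those 2 bulls. The values share their libraries, and the 3 were chosen as the highest of 24, so no test is given.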

How the data were processed

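The authors trimmed reads (FastQC 0.11.2, Trim Galore 0.4.0, per the submitters' processing notes), mapped them to UMD 3.1 with Bowtie2, extracted methylation with Bismark 0.14.5 and deposited, for every CpG position covered by at least 10 reads, its methylation in percent, with the 2 strands as separate positions. The deposited read counts per position exist for H01, H02, H03, L01, L02 and L03 only. The SCR test used them, and the other traits counted 10 reads per position. The deposited percents do not tell an inherited T from an unmethylated C, and genotypes were not used here.

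Tiles were tested over the whole genome by a likelihood ratio test, the study's kind of test but with the assumed reads above, with q values by a simplified SLIM method. Alternatives were an F test with overdispersion, limma 3.58.1 (R 4.3.3) on log2 values of methylated over unmethylated reads, 1 read being added to both, computed from the deposited percents, a Cochran-Mantel-Haenszel test at matched positions, and the others given in the closing section. Bull values were tested by exact two-sided permutation (Python 3.11.15, NumPy 2.4.6, SciPy 1.17.1, figures by matplotlib 3.10.9). The tests were tried on simulated GL data with read sampling only and no added spread between bulls. There the F test called none of the changed tiles and limma a minority of them. In a simulation of chromosome 28 that kept the listed positions, the logistic test called 560 unchanged tiles and the matched-position test 0. Each position's level there was the mean of the GL bulls that list it, so a position listed by 1 bull carried that bull's value. The 560 calls therefore do not separate the listed positions from differences between bulls. No 2 files were alike: over the 153 pairs of bulls, at most 6.43% of shared chromosome 28 positions under 100% in either bull had equal values (within 0.01 points).

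Tiles named were those called for GL, those called for 2 or more traits and the one with the largest difference of each trait. Positions named were those listed in at least 12 bulls with the 5 largest ranges, and those in the GL tiles listed by both groups. The other positions in the text were chosen after their values were seen. Genes named were the 3 most alike of the other 24 fine-mapped genes. The gene, lists and rules were chosen with earlier results of these data known. Other genes of the SIN3-HDAC complex were not analysed here, since their coordinates in this build were not given.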

Additional observations from a re-analysis of the deposited data

Results flagged for a closer look

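Among the 4 high-GL bulls, the mean of the upper low-methylation domain was 5.10% in L03, against 1.77% to 2.24% in the others. Its gap to the nearest bull was 0.859 of the whole range, above Dixon's 95% critical value. L03 listed 10 positions of the domain. With 14 groups examined in this way, about 1 in 20 is marked by chance.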

How the results depend on the processing

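The number of ARID4B tiles called (GL 2, SCE 4, BDE 2, CCR 2 and SCR 4) depended on the test. The F test and limma called 0 in all traits, and 0 over the whole genome, and matched positions 0, 1, 0, 0 and 0. With 13 reads per position 4 of 46 were called for GL (8.7%, genome 12.2%). With a difference over 10 points 0 of 32 were called for SCE (genome 4.65%), 1 of 33 for CCR (7.09%) and 2 of 42 for SCR (5.64%). With at least 3 positions per bull 0 of 15 were called for SCE (genome 6.63%), 1 of 22 for BDE (8.15%) and 1 of 14 for CCR (11.4%). For GL it was 2 of 22 (9.09%, genome 8.77%) and for SCR 3 of 19 (15.8%, genome 9.33%). With Benjamini-Hochberg adjustment 1 of 33 was called for CCR (9.94%). Tiles shifted by 1000 bp gave 3 of 47 for GL (genome 8.81%), 3 of 32 for SCE (6.22%) and 2 of 45 for BDE (7.49%). For CCR they gave 2 of 33 (11%) and for SCR 5 of 43 (8.75%). Leaving out 1 bull, which changed the tiles tested to 46 to 56 for GL, 32 to 52 for SCE, 44 to 55 for BDE, 33 to 43 for CCR and 42 to 53 for SCR, gave 1 to 3 for GL (1 without L07), 0 to 4 for SCE (0 without H06, 1 without H03 or L02), 1 to 4 for BDE (1 without H02 or H05, 4 without H09), 1 to 3 for CCR (1 without H09, L06, H06 or L08) and 2 to 6 for SCR (2 without L01). The genome's shares then were 7.84% to 9.12%, 6.17% to 6.8%, 6.93% to 7.79%, 8.53% to 16.9% and 8.47% to 9.38%. A coverage minimum of 15 reads left no ARID4B tile for SCR. The cause of these changes was not tested. Of the named tiles, the GL tile at the upper domain turned to 1.15 points at matched positions, most of which lie in the domain. With 1 bull left out, the SCE tile at 8002001 ranged from -0.88 (without H06) to 10.1 points and that at 8030001 from -12.8 to 5.61 (without H06).

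The sign of the position-adjusted differences changed under some alternatives. For 4 traits the smallest possible p was 0.1, so their p-values say nothing about stability. The GL difference was -1.25 points as plain means, -2.30 at the 4 positions listed in every bull and -0.0076 in bulls without listed coverage. At the 5 to 15 positions listed in every bull of the other comparisons, the difference was -1.86 for SCE, 1.69 for BDE, -0.36 for CCR and -3.64 for SCR, of the same sign but larger. The SCE difference was 0.0196 in bulls with listed coverage, the BDE difference -0.11 in bulls without it, and the SCR difference 1.20 as plain means. Leaving out 1 bull gave -0.11 to 0.35 for GL, -0.70 to -0.03 for SCE, 0.34 to 1.06 for BDE, -0.38 to 0.33 for CCR, -0.59 to 0.27 for SCR and -0.29 to 1.70 for the GL domains. ARID4B minus the genome was 4.51 points, 7.75 without the flanks, which hold part of the upper domain, 5.18 against chromosome 28, 3.93 against the 100 kb on each side, 3.42 in bulls with at least 500 positions and 4.21 to 4.90 with each bull left out. It was 10.4 without the domains, a rise fixed by leaving out low positions from ARID4B only. An additive fit, the 500-position minimum and tiles without 1 position were added after the data were seen. No paired analysis was possible because the labels give the groups no shared replicate numbers.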

Other observations

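H04 and L04 carry no group. H04 listed 591 ARID4B positions with a mean of 86.2%, a position-adjusted deviation of 0.45 points and 92.4% outside the domains. L04 listed 737 positions with a mean of 84.3%, a deviation of -0.70 points, the lowest of the 18 bulls, and 91.6% outside the domains.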
